A study of Mus musculus with 6 samples.

Results

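The heat shock genes described here are 10 listed genes of the cytosolic and mitochondrial chaperone system: the transcription factor gene Hsf1 and the chaperone or co-chaperone genes Hspa8, Hsph1, Dnaja1, Dnajb1, Hsp90aa1, Hsp90ab1, Stip1, Hspd1 and Hspe1. They were taken by symbol from a table of read counts for 46983 Ensembl gene identifiers, and all 10 matched 1 identifier each. The RNA came from macrophages differentiated in culture from mouse bone marrow. Femur marrow of C57BL/6 mice, either wild-type (WT, 3 libraries) or AEG-1 knockout (AEG-1 KO, 3 libraries), was grown for 7 days in 20% medium conditioned by L929 cells and 10% heat-inactivated serum, and the cells of both groups received no treatment. Mtdh is the gene of AEG-1, astrocyte elevated gene-1. The labels name neither the deleted part of Mtdh nor the cell types that lack it, and leave unsaid whether each replicate was its own animal or culture. The p-values therefore measure how far these libraries differ from each other, and that spread may be technical.

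Heat shock proteins are chaperones: they bind unfolded or unstable proteins and help them fold, assemble or be degraded. In the cytosol HSP70 proteins take up a client with the help of J-domain proteins and hand some clients to HSP90 through the adaptor STIP1, while in mitochondria the HSP60 and HSP10 chaperonin encloses the client. The transcription factor HSF1 raises these genes when proteins unfold by binding heat shock elements, which are runs of the unit NGAAN in alternating orientation, and several of the genes are also expressed without stress.

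The libraries held 42548170 to 58947230 counts, so that 1 CPM (the depth-scaled count, with TMM normalization factors) was worth 42.6 to 58.5 reads. Reads of Mtdh numbered 11560, 14849 and 11806 in the WT libraries, in the order of their replicate numbers, and 15, 22 and 15 in the AEG-1 KO libraries, so all 6 libraries carried the Mtdh level of their label. By edgeR 1023 of 16115 tested genes (6.35%) were called, meaning an adjusted p under 0.05. Of the 10 macrophage markers, among them Adgre1, Cd68 and Csf1r, none was at 0, and their summed level was between 18263 and 18676 CPM in every WT library and between 18731 and 19338 in every AEG-1 KO library. Markers of other cells were present too: the summed levels in WT and in AEG-1 KO were 166 to 187 and 216 to 229 CPM for 9 monocyte markers, 449 to 458 and 506 to 555 CPM for 13 neutrophil markers, and 7.88 to 8.97 and 12.2 to 14.1 CPM for 10 fibroblast, stromal and endothelial markers. For 6 T and B lymphocyte markers they were 1.79 to 2.13 and 2.71 to 3.19 CPM. The edgeR test called 4 macrophage markers higher and 1, Adgre1, lower in AEG-1 KO. It called 6 of 9 tested monocyte markers higher and 0 lower, 6 of 11 tested neutrophil markers higher and 1 lower, and 3 of 8 tested stromal markers higher and 0 lower. Their part in the results below was not tested, and in bulk RNA fewer cells of a type and less RNA per cell cannot be told apart.

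Whether untreated macrophages without AEG-1 differ in these transcripts was read from AEG-1 KO against WT. In AEG-1 KO 5 chaperone genes fell to 80.0% to 87.1% of their WT mean, no member rose, and Hsf1 and Dnajb1 were at 100.01% and 96.2% of it. By edgeR's quasi-likelihood test with Benjamini-Hochberg adjustment over all 16115 genes, 5 of the 10 members passed an adjusted p of 0.05 on the lower side, namely Stip1, Hspa8, Hspe1, Hspd1 and Dnaja1. Over all tested genes the share called lower was 3.04% and the share called higher 3.31%. Among the 9127 tested genes that averaged 10 CPM or more, a level every member exceeded, 4.19% were called lower. No member was called higher by edgeR, DESeq2 or limma-voom, and none was higher at an unadjusted p under 0.05, while 8 were lower at that level, against 11.2% of all tested genes higher and 10.3% lower. The median log2 fold change of the members was -0.20, against 0.01 over all tested genes. In 8 of the 10 members every AEG-1 KO library lay below every WT library, which held for 12.9% of all tested genes and 15.4% of those of at least 10 CPM, and groups that did not overlap in either direction made up 26.8% of all tested genes. These 8 were the members other than Hsf1 and Dnajb1.

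The calls depended on single libraries. Without AEG-1 KO replicate 2, none of the 10 members was called by edgeR, although 8 were lower at an unadjusted p under 0.05 and the median log2 fold change of the members was -0.22. One member was called without WT replicate 2 and 1 without AEG-1 KO replicate 3, Stip1 in both fits, and 2 were called without WT replicate 3, Stip1 and Hspa8. Over all genes the calls also became fewer without AEG-1 KO replicate 2 (380), WT replicate 2 (441) or AEG-1 KO replicate 3 (606). Without WT replicate 3 they did not (1094, against 1023 with all libraries). The share of tested genes called lower in these 4 fits was 1.2%, 1.36%, 1.87% and 3.5%, in that order. With upper-quartile factors or no normalization factors, Hspd1 and Dnaja1 were not called and the other 3 were. The values by library are therefore set out for each member.

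**Figure D1:**
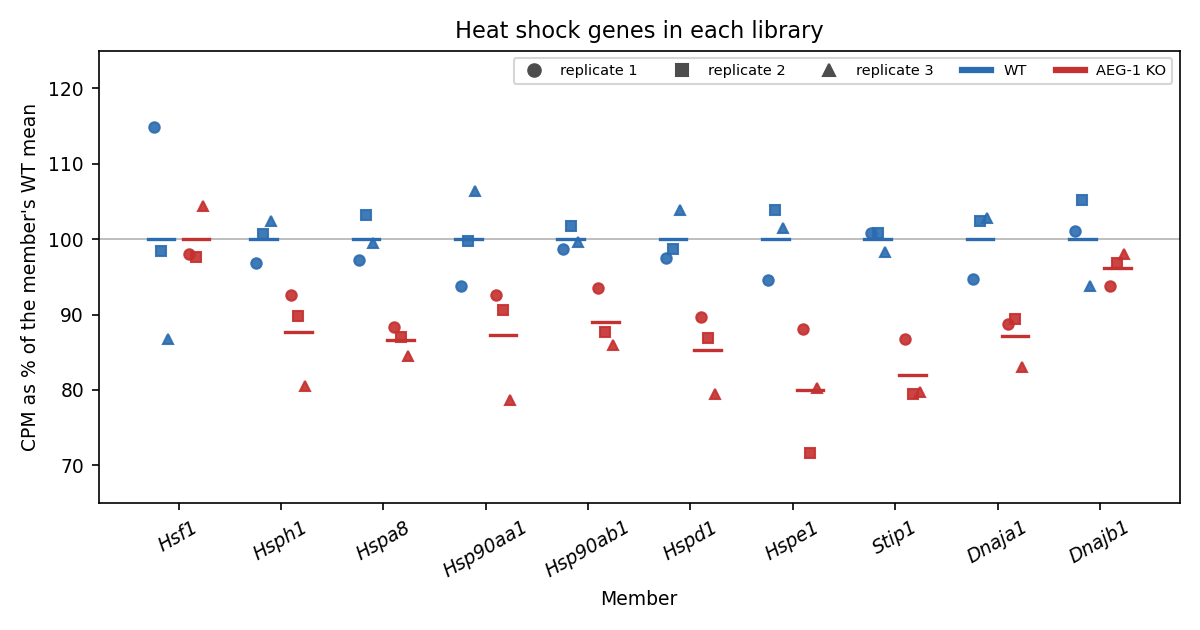
CPM of each heat shock gene in each library, as a percentage of that gene's WT mean (points, with a shape for each replicate number, and dashes for the group means; blue WT, red AEG-1 KO, n = 3 each). The red points lie below the blue ones in 8 genes and overlap them in Hsf1 and Dnajb1, and AEG-1 KO replicate 3 is the lowest library in 6 of the 10.

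Hsf1 encodes the transcription factor that drives the heat shock response, and its transcript level did not pass the test. Hsf1 (ENSMUSG00000022556, GRCm38 chromosome 15, 76477422 to 76501913) lies 42.4 Mb from Mtdh on the same chromosome. It had 36.6, 31.3 and 27.6 CPM in WT replicates 1 to 3 and 31.2, 31.1 and 33.2 CPM in AEG-1 KO replicates 1 to 3. The AEG-1 KO values lay inside the WT range, whose highest and lowest libraries were WT replicates 1 and 3. The log2 fold change was 0.00 ± 0.09 (SE), with a 95% interval of -0.21 to 0.21 (edgeR adjusted p = 0.999), and its sign turned under 9 of 19 alternatives. The interval allows an AEG-1 KO level of 86.6% to 116% of WT. Transcript counts say nothing of the trimer formation, phosphorylation and nuclear entry through which the HSF1 protein is known to be switched on.

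The cytosolic HSP70 machine was represented by Hspa8, Hsph1, Dnaja1 and Dnajb1. Hspa8 (ENSMUSG00000015656, chromosome 9, 40800984 to 40810087) encodes HSC70, the HSP70 that cells make without stress, and was the member with the most reads, 58624 to 95589 in a library. Hspa8 had 1539, 1634 and 1575 CPM in WT replicates 1 to 3 and 1399, 1377 and 1337 CPM in AEG-1 KO replicates 1 to 3. The lowest WT library stood above the highest AEG-1 KO library by more than the range within either group. It fell by 0.21 ± 0.04 on the log2 scale (SE; edgeR adjusted p = 0.0174), a call lost on leaving out WT replicate 2 (edgeR adjusted p = 0.0861) or the AEG-1 KO replicates 2 (0.0868) or 3 (0.0586).

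Hsph1 (ENSMUSG00000029657, chromosome 5, 149614287 to 149636376) encodes HSP105, a large relative of HSP70 that exchanges its nucleotide. It had 117, 122 and 124 CPM in WT replicates 1 to 3 and 112, 109 and 97.2 CPM in AEG-1 KO replicates 1 to 3. The groups did not overlap, but AEG-1 KO replicate 3 stood well below the other libraries of its group. The log2 fold change of -0.19 ± 0.06 (SE) did not pass the edgeR test (adjusted p = 0.0874), whereas DESeq2 called it (adjusted p = 0.0447).

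The J-domain proteins, which bring clients to HSP70 and start its ATP hydrolysis, were represented by Dnaja1 and Dnajb1. Dnaja1 (ENSMUSG00000028410, chromosome 4, 40722150 to 40737149) had 198, 214 and 215 CPM in WT replicates 1 to 3 and 185, 187 and 173 CPM in AEG-1 KO replicates 1 to 3. It fell by 0.20 ± 0.05 on the log2 scale (SE; edgeR adjusted p = 0.0475), and of the 6 fits without 1 library only that without WT replicate 1 kept the call (edgeR adjusted p from 0.0838 to 0.18 in the others). Dnajb1 (ENSMUSG00000005483, chromosome 8, 83608193 to 83612653), which encodes HSP40 and is known as a strongly heat-inducible gene, had 30.5, 31.7 and 28.3 CPM in WT replicates 1 to 3 and 28.3, 29.2 and 29.6 CPM in AEG-1 KO replicates 1 to 3. Its groups overlapped, and the log2 fold change was -0.06 with a 95% interval of -0.19 to 0.07 (edgeR adjusted p = 0.635). The difference between the fold changes of Dnaja1 and Dnajb1 was not tested.

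The HSP90 system was represented by both cytosolic HSP90 genes and Stip1. Hsp90ab1 (ENSMUSG00000023944, chromosome 17, 45567775 to 45573271) encodes the form made without stress, HSP90 beta, and Hsp90aa1 (ENSMUSG00000021270, chromosome 12, 110690605 to 110702728) the more inducible HSP90 alpha. Hsp90ab1 had 1414, 1459 and 1428 CPM in WT replicates 1 to 3 and 1342, 1258 and 1232 CPM in AEG-1 KO replicates 1 to 3, a log2 fold change of -0.17 ± 0.04 (SE; edgeR adjusted p = 0.0554). Hsp90aa1 had 635, 675 and 720 CPM in WT replicates 1 to 3 and 626, 613 and 532 CPM in AEG-1 KO replicates 1 to 3, a log2 fold change of -0.20 ± 0.07 (SE; edgeR adjusted p = 0.137). Neither gene's groups overlapped, but in Hsp90aa1 WT replicate 1 and AEG-1 KO replicate 1 lay next to each other. Hsp90ab1 was just outside the threshold, and it was called by DESeq2 (adjusted p = 0.0217) and limma-voom (adjusted p = 0.0469). Hsp90aa1 was called by neither (adjusted p = 0.0658 and 0.131).

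Stip1 (ENSMUSG00000024966, chromosome 19, 7020702 to 7039967) encodes the adaptor, also called HOP, that binds HSP70 and HSP90 at once. Of the 10 members it had the smallest p. It had 134, 134 and 131 CPM in WT replicates 1 to 3, a spread of 1.45% of the mean, and 115, 106 and 106 CPM in AEG-1 KO replicates 1 to 3. It fell by 0.29 ± 0.05 on the log2 scale (SE; edgeR adjusted p = 0.00789), to 82.0% of the WT mean. The call was kept in 5 of the 6 fits without 1 library and lost when AEG-1 KO replicate 2 was left out (0.0533, edgeR adjusted p), and Stip1 was the 1 member called at an adjusted p of 0.01, where 1.23% of all tested genes were called lower.

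The mitochondrial chaperonin genes Hspd1 (ENSMUSG00000025980, chromosome 1, 55077835 to 55088243) and Hspe1 (ENSMUSG00000073676, chromosome 1, 55088132 to 55091307) encode HSP60 and HSP10, the chamber and its lid. The genes stand head to head on opposite strands and share 112 exonic bases, so without a known strand setting reads from that stretch cannot be given to either. Hspe1 had 52.4, 57.6 and 56.3 CPM in WT replicates 1 to 3 and 48.8, 39.7 and 44.5 CPM in AEG-1 KO replicates 1 to 3. It fell by 0.32 ± 0.08 on the log2 scale (SE; edgeR adjusted p = 0.0375), the lowest log2 fold change of the 10. Hspd1 had 68.3, 69.2 and 72.8 CPM in WT replicates 1 to 3 and 62.9, 61.0 and 55.7 CPM in AEG-1 KO replicates 1 to 3. It fell by 0.23 ± 0.06 on the log2 scale (SE; edgeR adjusted p = 0.0463). In both genes the groups did not overlap, but the lowest AEG-1 KO library was replicate 2 for Hspe1 and replicate 3 for Hspd1. The call of Hspe1 was kept without WT replicate 1 or AEG-1 KO replicate 1 and that of Hspd1 without WT replicate 1, and both were lost in the other fits without 1 library (edgeR adjusted p up to 0.145 and 0.142).

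**Figure D2:**
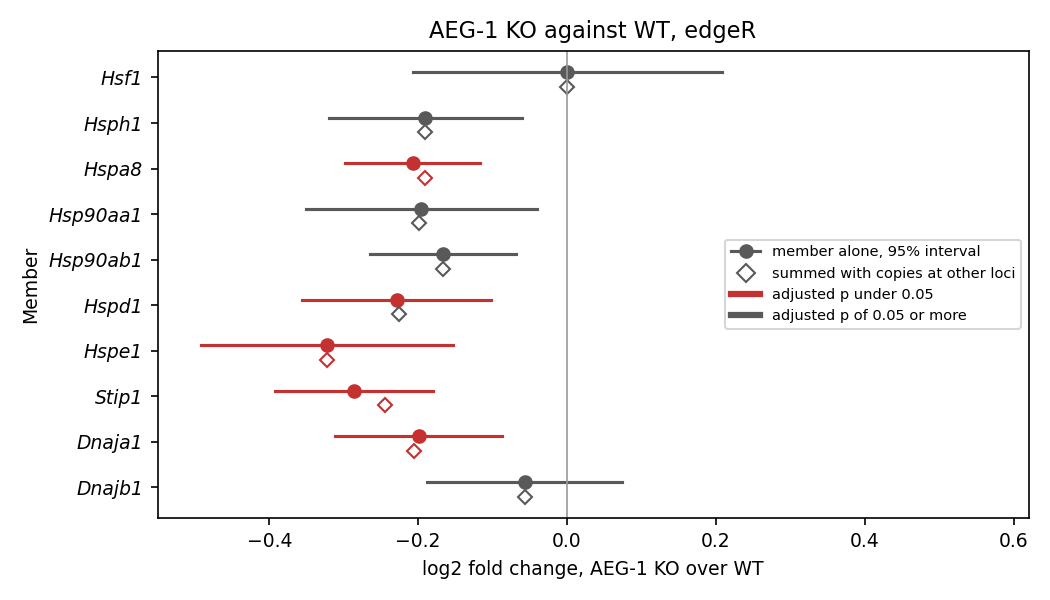
Log2 fold change of AEG-1 KO over WT for each heat shock gene from edgeR (circles, with 95% intervals) and for the gene summed with its near-identical copies at other loci (diamonds), in red where the adjusted p is under 0.05. The circles lie between -0.32 for Hspe1 and 0.00 for Hsf1, and of the 5 genes in red as single genes, Hspd1 is not red when summed.

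The heat shock elements at the head-to-head starts of Hspd1 and Hspe1 are shown because both genes were called lower. RefSeq start sites (GRCm38.p6) gave 11 windows, from 250 bases before to 50 after a start, for 6 members: Hsph1, Hspd1, Hspe1, Stip1, Dnaja1 and Dnajb1. Heat shock elements of 2 units were searched as GAANNTTC and TTCNNGAA, each its own reverse complement. Those of 3 units were GAANNTTC followed directly by NNGAA, or TTCNNGAA followed directly by NNTTC, which are reverse complements of each other and contain the 2-unit forms. The set held no window for Hsf1, Hspa8, Hsp90aa1 and Hsp90ab1. The 3-unit form was in windows of Hspd1, Hspe1 and Hsph1 and in 0.603% of the 32851 windows of the whole set, counted by window and not by gene. The 30 bases at chr1:55088053-55088082 hold 4 alternating units, given as read from each gene, with the units and the bases between them in capitals. They lie before the Hspe1 start and before 1 of the 2 RefSeq starts of Hspd1, inside the annotated span of Hspd1, and the window of the other Hspd1 start holds neither form. Hsph1 has its 3-unit match at chr5:149636279-149636308, after the start in both of its windows, and a separate 2-unit match, TTCTCGAA, before it. Dnaja1 has a 2-unit match, a form found in 15.1% of all windows, at chr4:40722333-40722362. It lies before a RefSeq start but inside the annotated span of Dnaja1, and the windows of the other Dnaja1 starts hold neither form.
Hspe1 (plus strand): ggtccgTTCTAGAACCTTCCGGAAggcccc
Hspd1 (minus strand): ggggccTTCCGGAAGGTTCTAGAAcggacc
Hsph1 (minus strand): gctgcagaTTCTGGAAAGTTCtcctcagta
Dnaja1 (plus strand): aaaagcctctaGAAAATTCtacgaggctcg

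Stip1 and Dnajb1 had neither form in these windows. The 250 bases before the Stip1 start, chr19:7040027-7040276 on the minus strand, hold 4 CCAAT boxes, which bind the factor NF-Y, and a TATA box, all in capitals. CCAAT or its reverse complement ATTGG was in 37.4% of all windows and occurred at least 4 times in 1.06%, and TATAAA or its reverse complement TTTATA was in 13.6%.
Stip1 (minus strand): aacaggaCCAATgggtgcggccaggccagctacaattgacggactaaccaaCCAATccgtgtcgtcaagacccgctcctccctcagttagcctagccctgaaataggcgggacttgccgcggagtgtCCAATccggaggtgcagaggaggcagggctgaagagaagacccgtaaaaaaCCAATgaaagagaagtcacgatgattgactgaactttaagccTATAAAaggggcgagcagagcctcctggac

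A match is a description of letters, not a bound site. Of the 3 genes with a 3-unit match, Hspd1 and Hspe1, which share the same matched stretch, were called lower. Hsph1 was not called by edgeR (adjusted p = 0.0874), but was by DESeq2 (adjusted p = 0.0447). Stip1, without a match in its window, was called, and Hspa8, also called, had no window to search. Whether matches and calls go together was not tested.

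Several members have near-identical processed copies, which are pseudogenes made from spliced transcripts. Transcripts of the 10 members were aligned to all GENCODE transcripts, and another gene counted as a copy from 95% identity over at least 100 bases. Such matches at other loci were found for 6 members, of which 5, namely Hspa8, Hsp90aa1, Hspd1, Stip1 and Dnaja1, had 18 copies in the count table. Hsf1, Hsph1, Hsp90ab1 and Dnajb1 had none by this measure, and the match of Hspe1 was not used here. The counts that fell on the copies ranged from 7.23% to 9.25% of the summed counts for Hspa8 (9 copies), from 21.4% to 22.6% for Hsp90aa1 (3 copies) and from 19.7% to 21.2% for Dnaja1 (4 copies). Stip1 shares a stretch of 171 bases with transcripts of Cfap20, a cilium protein gene, which held 10.4% to 14.1% of their sum. Cfap20 is a protein-coding gene, not a processed copy, and counts as a copy only by the measure above. Of the other copies, Gm26825 (Hspa8) is a long noncoding RNA gene and Gm10475 (Dnaja1) an antisense RNA gene.

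Hspd1 was the extreme case: its processed copy Hspd1-ps3 (chromosome 11, 41498737 to 41500458) had more counts than Hspd1 in every library. The reads of Hspd1-ps3 numbered 6720, 9133 and 7574 in WT and 6550, 6177 and 5471 in AEG-1 KO, in replicate order. Hspd1 had 3053, 4048 and 3150 reads in the same WT libraries and 2833, 2596 and 2495 in the same AEG-1 KO libraries, so the copy held 68.7% to 70.6% of the sum. The 2 transcripts align over 1722 bases, from the start codon to the stop codon, with 98.955% identity and a longest identical run of 431 bases. The 60-base stretch of that alignment with the most differences has 3, given in capitals, and shows how little separates reads of the 2 loci.
Hspd1: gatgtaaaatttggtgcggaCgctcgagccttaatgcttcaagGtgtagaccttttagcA
Hspd1-ps3: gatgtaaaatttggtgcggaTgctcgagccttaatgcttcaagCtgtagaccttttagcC

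Most of the tested copies had fold changes on the side of their member. Of 14 tested copies, 3 were called lower, 11 did not pass the test and none was called higher by edgeR. Over all tested genes 3.04% were called lower and 3.31% higher. Of the 14, 11 had a log2 fold change below 0, the side of 46.9% of all tested genes. The copies were chosen for their likeness to the members, and how multi-mapping reads were handled is not given. Reads counted on a copy may therefore come from its member, and a shared side is not separate evidence. Gm15542, a copy of Dnaja1, had 15.5 ± 0.654 CPM in WT (SD, n = 3) and fell to 77.5% of that level (edgeR adjusted p = 0.0177). Of the copies of Hsp90aa1, Gm5844 fell by 0.25 (edgeR adjusted p = 0.0317) and Gm5511 by 0.37 on the log2 scale (0.0391), although Hsp90aa1 itself was not called. Each of the 3 lost its call on leaving out AEG-1 KO replicate 2 (edgeR adjusted p = 0.0948 for Gm15542, 0.133 for Gm5844, 0.136 for Gm5511), WT replicate 2 (0.0828, 0.0909, 0.152) or AEG-1 KO replicate 3 (0.068, 0.102, 0.113). Gm5844 and Gm5511 lost it without WT replicate 3 (edgeR adjusted p = 0.0567, 0.0676) and Gm5511 without AEG-1 KO replicate 1 (0.0506). Gm8355, the copy of Hspa8 with the most reads, stood on the other side, with 46.9, 34.8 and 44.0 CPM in WT replicates 1 to 3 and 48.0, 55.5 and 40.8 CPM in AEG-1 KO replicates 1 to 3, and its groups overlapped (edgeR adjusted p = 0.412). The second most read copies, Gm8326 of Hspa8 and Gm12346 of Hsp90aa1, had log2 fold changes of -0.19 and -0.11, and Gm7816, the most read copy of Dnaja1, of -0.17, while Hspd1-ps3 was at -0.22 and Cfap20 at 0.05 (edgeR adjusted p = 0.134, 0.351, 0.185, 0.139 and 0.693).

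Summing each member with its copies at other loci left 4 members called lower. Hspa8, Stip1, Dnaja1 and Hspe1, the last with no copy summed, kept their calls (edgeR adjusted p = 0.023, 0.0125, 0.0438 and 0.0373). For Stip1 the sum takes in all reads of Cfap20, a protein-coding gene of its own. Hspd1 with its copy had a log2 fold change of -0.23 ± 0.07 (SE), the same size as alone with a wider error, and lost its call (edgeR adjusted p = 0.0956). The values of the 5 genes with counted copies are uncertain as single-locus measurements, and so is that of Hspe1, whose match could not be summed. Dnaja1 also shares 608 exonic bases with Smu1, a splicing factor gene on the opposite strand whose log2 fold change was 0.01 (edgeR adjusted p = 0.968), and 249 with the long noncoding RNA gene Gm6297, also on the opposite strand. With both summed too, Dnaja1 had a log2 fold change of -0.14 and was not called (edgeR adjusted p = 0.135). That sum takes in all reads of Smu1, not only those of the shared bases. A smaller fold change follows from adding a gene at 0.01, so this fit is no check of the Dnaja1 call. Exons of Hspa8 also hold, on the same strand, the 3 small nucleolar RNA genes Snord14c, Snord14d and Snord14e.

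**Figure D3:**
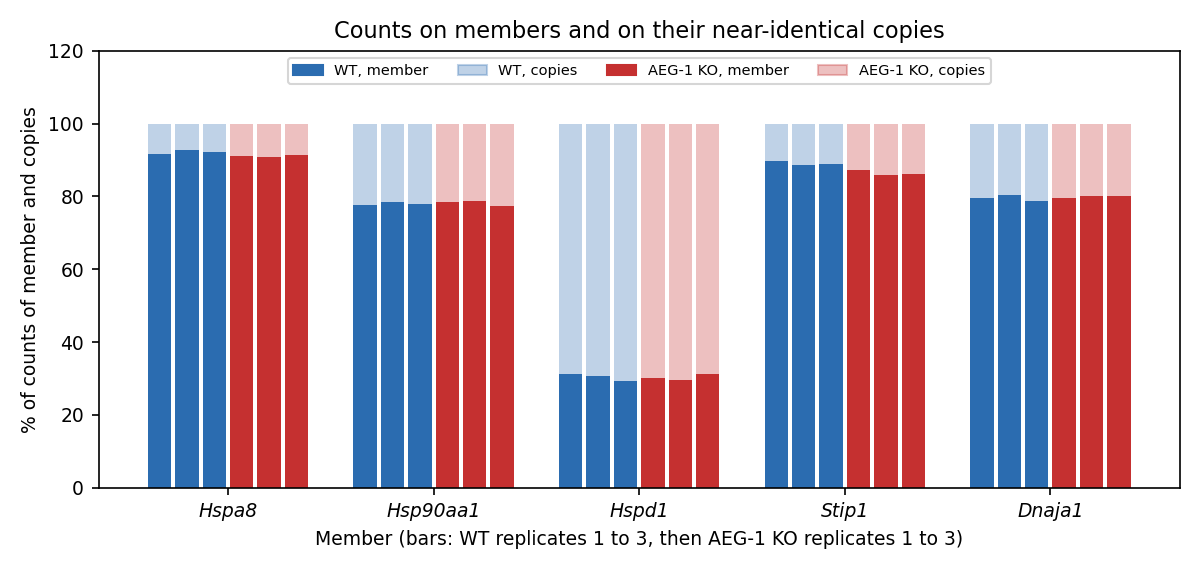
Percentage of the summed counts of a member and its near-identical copies at other loci that fell on the member (dark) and on the copies (light), in each library (blue WT, red AEG-1 KO). Hspd1 is the 1 gene whose copy holds most of the counts, 68.7% to 70.6%. The libraries of both groups look alike within each gene apart from Hspa8 and Stip1, where the copies hold a slightly larger share in AEG-1 KO. For Stip1 the light part is Cfap20, a protein-coding gene.

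Levels per length spanned a wide range. In RPKM (CPM per kilobase of all annotated exons of the gene), the WT means ± SD (n = 3) were 478 ± 7.73 for Hsp90ab1, 368 ± 11.1 for Hspa8, 172 ± 10.8 for Hsp90aa1 and 63.1 ± 0.913 for Stip1. They were lower for the mitochondrial pair, 37.6 ± 1.82 for Hspe1 and 26.5 ± 0.907 for Hspd1, and for Dnaja1 and Hsph1, 24.2 ± 1.10 and 16.6 ± 0.479. Dnajb1, at 9.42 ± 0.545, and Hsf1, at 4.49 ± 0.636, had the lowest levels per length. No 2 neighbours in this order overlapped in WT, and in AEG-1 KO the order was the same, with overlap between Hspd1 and Dnaja1 only. The order depends on the length used, which was 8629 bases for Dnaja1, 7266 for Hsph1 and 7099 for Hsf1, against 2108 for Stip1. In mean CPM in WT, Dnaja1 (209) stood above Stip1 (133), Hspd1 (70.1) and Hspe1 (55.4). The place of Hspd1 also depends on how its reads were divided with its copy. In CPM, Hspa8 and Hsp90ab1 made up 68.6% to 70.6% of the summed level of the 10 members, and that sum lay between 4225 and 4428 in WT and between 3641 and 3951 in AEG-1 KO.

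Within AEG-1 KO the members also differed by library. As log2 deviations from the group mean, 8 of 10 members were above it in AEG-1 KO replicate 1 and 7 of 10 below it in AEG-1 KO replicate 3, with mean deviations of 0.05 and -0.05. Within WT the mean deviations were -0.01, 0.02 and -0.01 in replicates 1 to 3. The genes nearest to the members' mean profile were sought among 9104 other genes of at least 10 CPM, as the smallest root mean square difference of centred log2 CPM over the 6 libraries. They were Gm5900, a processed pseudogene, Sfxn1, a mitochondrial serine transporter gene, Zdhhc13, Ago1, a gene of RNA silencing, and Adgre1, which encodes the macrophage marker F4/80 and was the 1 macrophage marker called lower against 4 called higher, at differences of 0.01 to 0.02. These genes were picked for matching the members' profile over the same libraries, and that profile is lower in AEG-1 KO. Fold changes near those of the members and small p-values therefore follow from the choice, and are given only as description. Ago1 (edgeR adjusted p = 0.0265) and Adgre1 (0.0238) each fell by 0.19 in log2 units. Both calls were lost on leaving out AEG-1 KO replicate 2 (edgeR adjusted p = 0.136, 0.125), WT replicate 2 (0.13, 0.078) or AEG-1 KO replicate 3 (0.0833, 0.0763), and that of Ago1 without AEG-1 KO replicate 1 (0.0558), whereas Gm5900, Sfxn1 and Zdhhc13 were at -0.17, -0.18 and -0.17 without a call (edgeR adjusted p = 0.078, 0.0609 and 0.0676). Among the members themselves Hsp90ab1 lay closest to their mean profile, at 0.01, and Hsf1 farthest, at 0.16.

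The wider chaperone network showed few calls, although most of its fold changes were below 0. Over 8 further lists of cytosolic and mitochondrial chaperones and co-chaperones, 93 genes were tested, of which 1 was called higher, 1 lower and 91 not. The share called lower was 1.08%, against 3.04% of all tested genes, of which 3.31% were called higher. The median log2 fold change was -0.05, and 65 of the 93 were below 0, against 46.9% of all tested genes. The lower side was thus not confined to the members, and the difference in size from them was not tested. The gene called lower was Ahsa1, which encodes an activator of the HSP90 ATPase: it fell from 197 ± 5.59 to 174 ± 5.99 CPM (SD, n = 3; edgeR adjusted p = 0.0444). Among 21 HSP90 co-chaperones it was the only call, and only leaving out WT replicate 3 kept it among the 6 fits without 1 library (adjusted p 0.0587 to 0.184 in the other 5). The gene called higher was Cryab, a small heat shock protein gene at a low level, which rose from 0.446 ± 0.0865 to 1.20 ± 0.0640 CPM (SD, n = 3). Its log2 fold change was 1.45 ± 0.20 (SE; edgeR adjusted p = 0.00299), and the call was kept in each alternative that tested it, while the filter at a mean of 1 CPM removed the gene. Cryab shares 252 exonic bases with Hspb2 on the opposite strand. In the same libraries the stromal markers, summed, were at 7.88 to 8.97 (WT) and 12.2 to 14.1 CPM (AEG-1 KO), and their part in the level of Cryab was not tested.

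In the remaining lists edgeR made no call. Of 14 tested subunits of the TRiC chaperonin, the cytosolic relative of HSP60, and of prefoldin, which delivers clients to it, 13 had a log2 fold change below 0 (median -0.11), against 46.9% of all tested genes, and 7 were lower at an unadjusted p under 0.05, against 10.3% of all tested genes, Pfdn2 with the smallest p (log2 fold change -0.19, edgeR adjusted p = 0.0803). The 15 mitochondrial chaperone and protease genes had a median of -0.02, with 4 lower and 1 higher at an unadjusted p under 0.05. Hspa9, the mitochondrial HSP70, had 367 ± 10.2 CPM in WT against 326 ± 13.4 in AEG-1 KO (SD, n = 3; edgeR adjusted p = 0.0525). DESeq2 (adjusted p = 0.0203) and limma-voom (adjusted p = 0.0496) called Hspa9 lower, and no other gene of this list. The 22 other J-domain proteins had a median of -0.02, with Dnajb4 at 0.18 (edgeR adjusted p = 0.0878) and 4 lower and 3 higher at an unadjusted p under 0.05. The 7 HSP70 nucleotide exchange factors had a median of -0.03, with Bag4 at 0.21 (edgeR adjusted p = 0.122) as the 1 gene past an unadjusted p of 0.05. The 3 tested genes of the HSF family and its regulators had a median of 0.11, with Hsbp1, an HSF1-binding inhibitor, at -0.15 (edgeR adjusted p = 0.117). DESeq2 and limma-voom made no call in the TRiC and prefoldin, J-domain, exchange factor, HSP70 and HSF lists.

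The inducible HSP70 genes were read at low levels. Hspa1b had 11.2, 6.92 and 5.32 CPM in WT replicates 1 to 3 and 4.97, 9.93 and 9.53 CPM in AEG-1 KO replicates 1 to 3, and Hspa1a had 0.865 to 1.32 CPM in all 6 libraries. Both groups overlapped in both genes (edgeR adjusted p = 0.936 and 0.711). They are a near-identical pair, were singled out after their values were seen, and are uncertain as single genes. In the list of 8 tested cytosolic HSP70 and HSP110 genes, none was called, and Hspa12a, at 0.309 ± 0.104 CPM in WT against 0.119 ± 0.0895 in AEG-1 KO (SD, n = 3), had the smallest p (edgeR adjusted p = 0.144). Hspa14, also listed, was not matched to an identifier and is not analysed here.

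Chaperones of the endoplasmic reticulum, a separate folding compartment with its own stress response, had a few calls, in both directions. Of 18 tested genes, 2 were called higher, 1 lower and 15 not, with a median log2 fold change of 0.00. Over all tested genes 3.31% were called higher and 3.04% lower. Dnajb9, a J-domain partner of the endoplasmic HSP70, rose by 0.48 (edgeR adjusted p = 0.00415) and Hspa13 by 0.26 in log2 units (0.0255), while Manf, a secreted stress-induced factor, had a log2 fold change of -0.28 and was called lower (edgeR adjusted p = 0.0092). Both Hspa13 and Manf lost their calls when AEG-1 KO replicate 2 was left out (0.159 and 0.0536, edgeR adjusted p) or WT replicate 2 (0.12 and 0.0538). Hspa13 lost it as well without replicate 1 of WT (edgeR adjusted p = 0.07) or of AEG-1 KO (0.0916). Manf shares exonic bases with 3 other genes. The difference between this list and the 10 members was not tested.

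**Figure D4:**
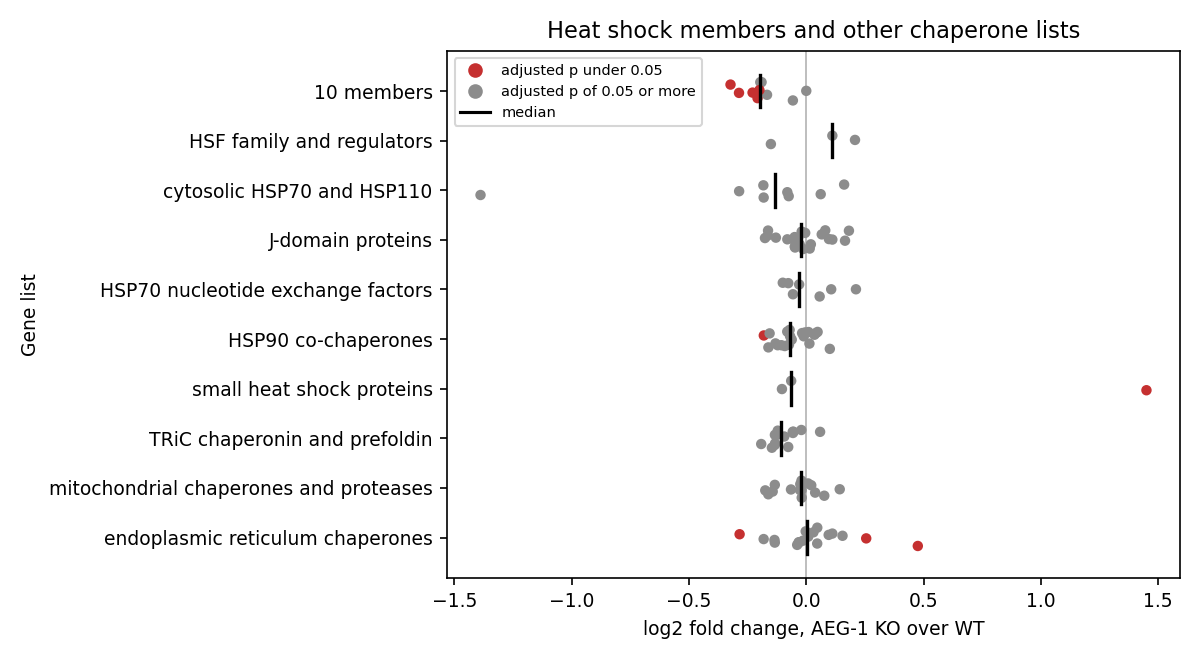
Log2 fold change of AEG-1 KO over WT for the 10 heat shock members and for each tested gene of 9 other chaperone lists (points, red where the edgeR adjusted p is under 0.05), with the median of each list (bar). Red points number 5 among the members, at the low side of their row, 1 among the HSP90 co-chaperones, 1 among the small heat shock proteins and 3 among the endoplasmic reticulum chaperones.

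**Figure D5:**
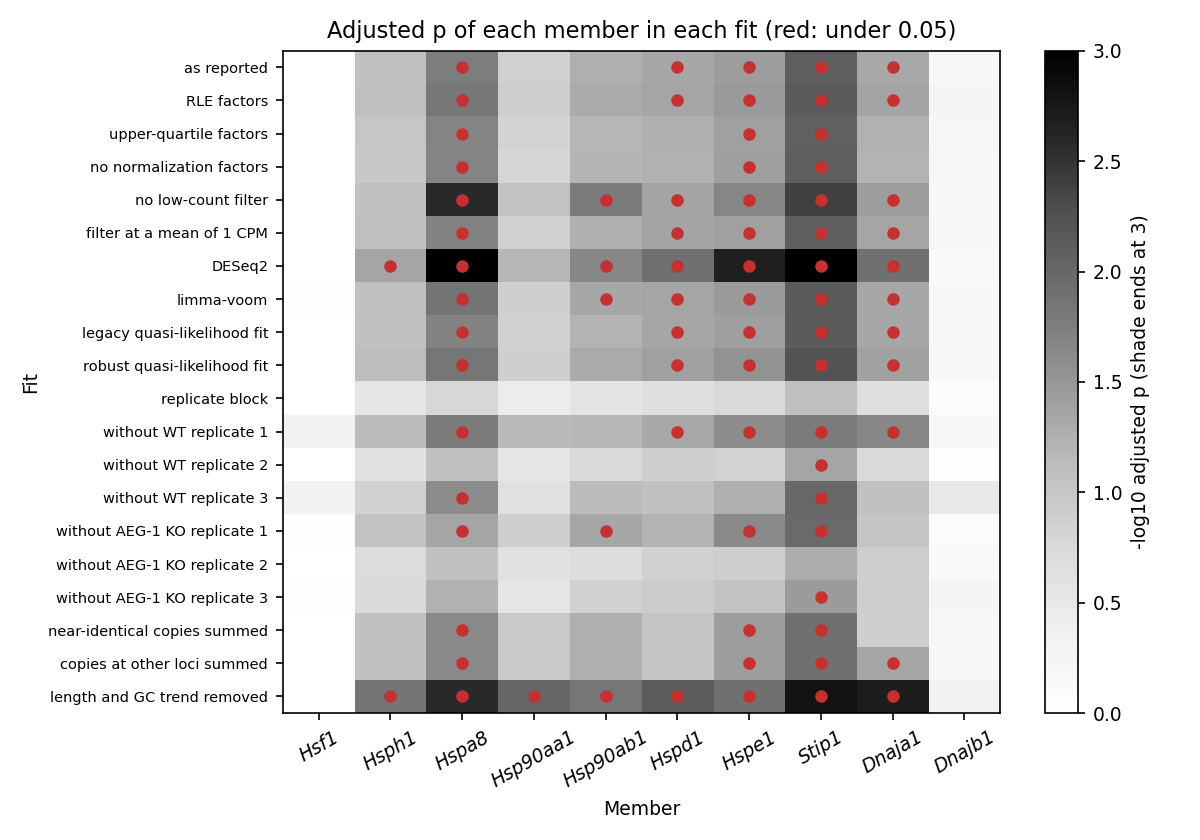
Adjusted p of each member (columns) in the reported fit and 19 alternatives (rows), shaded as -log10 up to 3, with a red dot where it is under 0.05. Stip1 has a dot in 17 and Hspa8 in 15 of the 19 alternatives, Hsf1 and Dnajb1 in none, and the rows without AEG-1 KO replicate 2 and with the replicate block have no dot.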

How the data were processed

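Sequencing libraries were prepared from total RNA with a TruSeq kit, per the labels' protocols. The authors deposited raw read counts per Ensembl gene, 1 column per library. Per the submitters' processing notes, which give no order, the tools were edgeR 3.18.1, featureCounts 1.4.6-p4 with Subread, cutadapt 1.9 and FastQC 0.11.2, and the builds GRCm38 and mm10. How multi-mapping reads and strand were handled, and from which annotation, is not given in the sources used here, which bears on every gene with a copy or an overlapping gene.

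Symbols, positions and exon lengths came from GENCODE mouse release 21 (GRCm38), which matched 46488 of 46983 identifiers. After filterByExpr at a minimum count of 10 and TMM scaling, genotype was tested alone by the quasi-likelihood test of edgeR 4.0.16 (R 4.3.3), and p-values were adjusted over the 16115 genes tested. A standard error was taken as the size of the log2 fold change divided by the root of F. The fit was also run on simulated counts, but with planted fold changes larger than that of any member. That run therefore does not bear on calls of the members' size. Replicates were no duplicates of each other (chi-square per degree of freedom 5.21 to 17.8 within a genotype). Copies were sought for the members only, with BLAST+ 2.17.0.

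The members and gene lists were chosen with earlier results of these data known. The genes named were Mtdh, the members, up to 3 called genes or the 1 of smallest p of each chaperone list, the 2 most read copies of each member and every called copy, and the 5 genes nearest in profile. Marker genes are given by list. Alternatives were RLE, upper-quartile and no factors, no filter or a mean of 1 CPM, DESeq2 1.42.0, limma-voom (limma 3.58.1), legacy and robust fits, a replicate block, an adjusted p of 0.01, leaving out each library, and summed copies. A sum without overlapping genes and the removal of a trend on transcript length and GC content (mgcv 1.9.3) were added after seeing the data.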

Additional observations from a re-analysis of the deposited data

How the results depend on the processing

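The count of members called lower was 5 as reported. It was 3 with upper-quartile factors, 3 with no normalization factors, and 3 with near-identical copies and the genes overlapping Dnaja1 summed. At an adjusted p of 0.01 it was 1, and with a length and GC trend removed it was 8. It ranged from 0 to 5 in the fits without 1 library. None was called higher in any fit. The count of called genes was 393 at an adjusted p of 0.01 and 2105 with the length and GC trend removed, against 1023 as reported, and 380 to 1094 without 1 library. With the replicate block 227 genes and 0 members were called by edgeR (7 members lower at an unadjusted p under 0.05). The labels do not say whether the numbers pair the samples. Deviations of same-numbered libraries from their group means correlated at -0.27, -0.17 and -0.25. With 3 libraries per group, and without differently numbered libraries beside them, these values cannot decide whether the samples were paired.

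The sign of the uncalled Hsf1 turned with RLE factors (-0.00774), upper-quartile factors (-0.00338), no low-count filter (-0.0126), DESeq2 (-0.00778), summed copies at other loci (-1.26e-05) and the length and GC trend removed (-0.00499), and its log2 fold change was -0.0942 to 0.0971 without 1 library. The sign of Smu1 turned with RLE factors (-0.00258), upper-quartile factors (-0.000205), no low-count filter (-0.00811) and DESeq2 (-0.00259), and without 1 library Smu1 was at -0.0456 to 0.0347 and Cfap20 at -0.000106 to 0.0978. The other 9 members kept a log2 fold change below 0 in every alternative run. At 42.6 to 58.5 reads per CPM, the rarest member still had 1194 reads in its lowest library.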
